A study of Mus musculus with 20 samples.

Results

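Lin28a, Lin28b, Igf2bp1, Igf2bp2, Igf2bp3, Hmga1, Hmga2 and Trim71 are the best known genes of the developmental timing circuit around the let-7 microRNA. They were taken by symbol from the transcript tables and from the gene names of the editing tables, and all 8 were listed, among 38414 genes listed in any transcript table. MAPIT-seq marks the RNAs close to a chosen protein: a primary antibody, here against the stress granule protein G3BP1, is bound by an anti-rabbit secondary antibody from guinea pig. That antibody recruits protein A/G fused to 2 editing enzymes, the deaminases rAPOBEC1 and hADAR2, which edit C and A bases of RNA nearby; the edits are read as C-to-T or A-to-G. The same libraries give the level of each transcript in TPM, a length-corrected abundance that sums to 1000000 in every library.

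The 20 libraries came from sections of wild-type C57BL/6J mouse embryos and form 10 groups of 2. Fixed E10.5 embryo and E10.5 embryo labelled fresh-frozen each had an anti-G3BP1, an IgG and an untreated arm, while E12.5 brain and E16.5 brain each had an anti-G3BP1 and an IgG arm. IgG libraries carry the background of the fusion, and untreated libraries, which per the labels had no formaldehyde step, the background of sequencing and of natural editing. The antibody and IgG sections were treated with 0.2% formaldehyde. The labels do not say that the 2 libraries of a group came from separate animals, so every p-value below measures the spread between these libraries, which may be technical. In bulk RNA, fewer cells of a type and less RNA per cell cannot be told apart.

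The libraries labelled fresh-frozen E10.5 embryo did not hold the transcripts of the fixed E10.5 embryo. Myl7, a heart atrial myosin light chain, averaged 4.63 TPM in the libraries labelled fresh-frozen and 2431 TPM in fixed embryo, and Hoxb9, a trunk patterning gene, 0.18 and 533 TPM. Gria2, a glutamate receptor subunit of neurons, averaged 341 TPM in the libraries labelled fresh-frozen and 1.005 TPM in fixed embryo. They are called by their label throughout, and nothing is drawn from them about E10.5. Across the series, 59070 to 337325 editing sites per table had at least 10 reads in every library, with a mean depth of 23.1 to 205 reads per site and library and an overall edited share of 0.198% to 1.246%. Read depth behind the TPM values is unknown.

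Lin28a and Lin28b are RNA-binding proteins with a cold shock domain and zinc knuckles that bind let-7 precursors and, with the uridylyl transferases Tut4 and Tut7, block their maturation. Mature let-7 in turn represses the messages of Lin28a, Lin28b, Hmga2, Trim71 and the Igf2bp genes. The circuit was first described in Caenorhabditis elegans, where lin-28, let-7 and the Trim71 relative lin-41 time larval cell fates. Igf2bp1, Igf2bp2 and Igf2bp3 bind and stabilise fetal growth messages, Hmga1 and Hmga2 are AT-hook chromatin proteins of dividing cells, and in mouse Hmga2 is known for promoting self-renewal of fetal neural stem cells.

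The sequences that link the group are the let-7 seed and its match in the 3' UTRs. Of 13 mature let-7 family entries in RefSeq (GRCm38.p6), all but let-7j carry the same seed, bases 2 to 8, shown in capitals here, 5' to 3', for 4 members that differ outside it:
mmu-let-7a-5p: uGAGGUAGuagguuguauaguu
mmu-let-7d-5p: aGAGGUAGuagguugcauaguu
mmu-let-7i-5p: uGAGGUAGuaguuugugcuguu
mmu-miR-98-5p: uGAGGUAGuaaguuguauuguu
The let-7a of the hairpin gene Mirlet7a-1 lies on chromosome 13 at 48538239 to 48538260 on the minus strand. That of let-7i lies on chromosome 10 at 122985698 to 122985719 on the minus strand.

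The reverse complement of that seed, CTACCTC, was searched on the transcript strand in 1 GENCODE M21 (GRCm38) 3' UTR per gene, and every one of the 8 genes held it. It was present in 1880 of 20622 genes (9.12%), and long 3' UTRs held it more often. The first match of each gene is shown 5' to 3' with the match in capitals:
Lin28a: gcacagcctgttgaaCTACCTCat
Lin28b: acccgggcgggaagtCTACCTCat
Trim71: aacattgcctaagtcCTACCTCag
Igf2bp1: gctgtgcgaagtaaaCTACCTCaa
Igf2bp2: acacacaaataaaagCTACCTCag
Igf2bp3: tgcatttttactcaaCTACCTCag
Hmga1: tcctctgttcacaaaCTACCTCtg
Hmga2: gccgacattcaatttCTACCTCag
Lin28b, Igf2bp1, Hmga2 and Trim71 each held 4 matches, Lin28a held 2, and Igf2bp2, Igf2bp3 and Hmga1 held 1. Among other 3' UTRs of like length, 4 or more matches were found in 0.223% for Lin28b, 0.166% for Igf2bp1, 0.0829% for Hmga2 and 0.362% for Trim71. A single match was common at the length of Igf2bp2 (12.02% of like 3' UTRs), Igf2bp3 (13.3%) and Hmga1 (8.08%). A match is a description of the letters and not a measured site. These genes are known let-7 targets, so the matches are no independent finding.

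The 2 Lin28 paralogs took different courses over the stages. Lin28a (chromosome 4, 134003330 to 134018841, minus strand, GRCm38) had 34.1 and 38.6 TPM in anti-G3BP1, 45.5 and 45.8 TPM in IgG and 40.3 and 40.1 TPM in untreated fixed E10.5 embryo. In E12.5 brain it had 7.66 and 6.67 TPM with anti-G3BP1 and 11.7 and 5.79 TPM with IgG, and in E16.5 brain 0.144 and 1.10 TPM with anti-G3BP1 and 0.791 and 0.629 TPM with IgG. The 3 sets of libraries did not overlap at any step, and the mean in E16.5 brain, 0.666 ± 0.398 TPM (SD, n = 4), was 61.2-fold below that in fixed E10.5 embryo, 40.7 ± 4.43 TPM (n = 6). These tables were normalised separately and set whole embryo against brain, so no test was run between fixed E10.5 embryo and the brains.

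Lin28b (chromosome 10, 45376620 to 45486395, minus strand) showed no such course. It had 12.02 and 12.08 TPM in anti-G3BP1, 15.5 and 11.3 TPM in IgG and 14.2 and 12.3 TPM in untreated fixed E10.5 embryo. In E12.5 brain it had 8.61 and 7.72 TPM with anti-G3BP1 and 14.98 and 10.7 TPM with IgG, and in E16.5 brain 13.1 and 11.3 TPM with anti-G3BP1 and 15.8 and 10.7 TPM with IgG. All 3 ranges overlapped. The libraries labelled fresh-frozen lay above all of them, at 16.2 and 21.9 TPM with anti-G3BP1, 23.8 and 21.6 TPM with IgG and 19.2 and 16.2 TPM untreated, while Lin28a averaged 1.09 ± 1.001 TPM there (n = 6). Lin28a therefore made up 75.9% ± 2.37 of the summed TPM of the pair in fixed E10.5 embryo (n = 6), 43.1% ± 5.46 in E12.5 brain (n = 4) and 5.06% ± 3.18 in E16.5 brain (n = 4), beside 4.73% ± 3.77 in the libraries labelled fresh-frozen (n = 6).

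Trim71, an RNA-binding repressor and ubiquitin ligase of early embryos and the mouse relative of lin-41, was with Lin28b the least abundant of the 8 genes in fixed E10.5 embryo, at 8.51 and 11.4 TPM in anti-G3BP1, 13.1 and 15.2 TPM in IgG and 10.8 and 10.49 TPM in untreated libraries. It had 4.22 and 3.33 TPM with anti-G3BP1 and 1.46 and 3.93 TPM with IgG in E12.5 brain. In E16.5 brain all 4 libraries were under 1 TPM, at 0.617 and 0.357 TPM with anti-G3BP1 and 0.395 and 0.515 TPM with IgG. Its E16.5 range overlapped that of the libraries labelled fresh-frozen, which averaged 0.732 ± 0.336 TPM (n = 6).

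**Figure D1:**
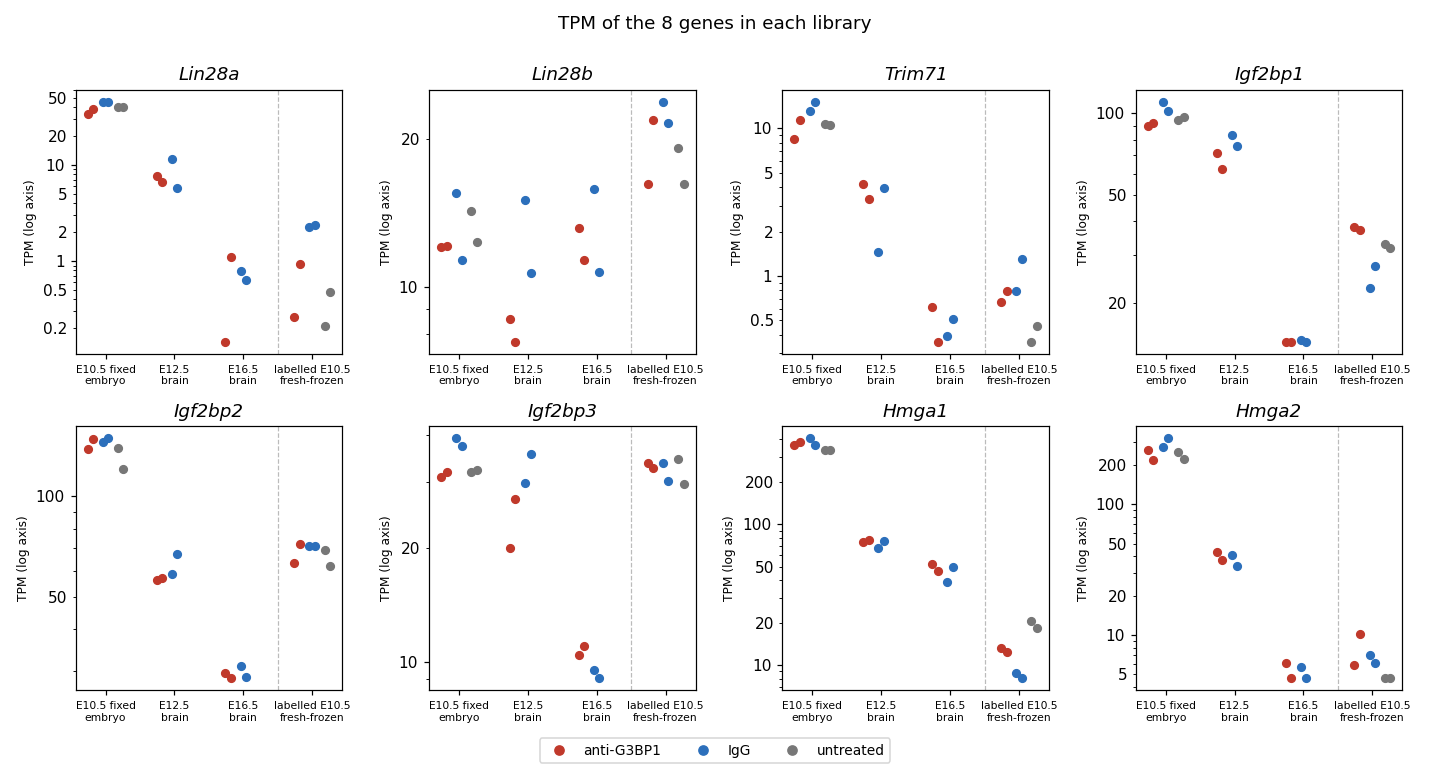
TPM of each of the 8 genes in every library on a log axis, for fixed E10.5 embryo, E12.5 brain, E16.5 brain and, right of the dashed line, the libraries labelled fresh-frozen E10.5 embryo; points are libraries with anti-G3BP1 in red, IgG in blue and untreated in grey. Lin28a spans 0.144 to 45.8 TPM, whereas Lin28b stays between 7.72 and 23.8 TPM.

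The Igf2bp genes kept higher levels into E16.5 than Lin28a, Hmga2 and Trim71. Igf2bp1, which binds messages such as that of beta-actin in growing neurites, had 90.0 and 92.3 TPM in anti-G3BP1, 111 and 103 TPM in IgG and 94.2 and 97.1 TPM in untreated fixed E10.5 embryo. It had 71.4 and 62.2 TPM with anti-G3BP1 and 83.4 and 75.9 TPM with IgG in E12.5 brain, and 14.4 and 14.4 TPM with anti-G3BP1 and 14.6 and 14.3 TPM with IgG in E16.5 brain. The 4 E16.5 libraries lay close together and below every library of the other tables. In the libraries labelled fresh-frozen Igf2bp1 averaged 31.7 ± 5.88 TPM (n = 6).

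Igf2bp2, the member of the trio that is also widely used after birth, was the most abundant of the 3 in fixed E10.5 embryo at 140 ± 10.7 TPM (n = 6). It had 56.3 and 56.9 TPM with anti-G3BP1 and 58.5 and 67.2 TPM with IgG in E12.5 brain, and 29.7 and 28.5 TPM with anti-G3BP1 and 31.2 and 28.8 TPM with IgG in E16.5 brain. Its E12.5 range overlapped that of the libraries labelled fresh-frozen, at 68.1 ± 4.37 TPM (n = 6), and no other pair of tables overlapped.

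Igf2bp3, a fetal paralog often found again in tumours, had 30.9 and 31.9 TPM in anti-G3BP1, 39.2 and 37.3 TPM in IgG and 31.9 and 32.2 TPM in untreated fixed E10.5 embryo. It had 20.1 and 27.1 TPM with anti-G3BP1 and 29.7 and 35.6 TPM with IgG in E12.5 brain, and 10.46 and 11.1 TPM with anti-G3BP1 and 9.55 and 9.05 TPM with IgG in E16.5 brain. Fixed E10.5 embryo, E12.5 brain and the libraries labelled fresh-frozen overlapped, and E16.5 brain lay below them all. The trio summed to 272 TPM on average in fixed E10.5 embryo, 161 TPM in E12.5 brain and 54.0 TPM in E16.5 brain. Igf2bp1 made up 35.9% of that sum in fixed E10.5 embryo, 45.5% at E12.5 and 26.7% at E16.5.

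The Hmga genes were the most abundant of the group in fixed E10.5 embryo. Hmga1 had 363 and 386 TPM in anti-G3BP1, 409 and 363 TPM in IgG and 337 and 334 TPM in untreated fixed E10.5 embryo. It had 74.3 and 76.8 TPM with anti-G3BP1 and 68.0 and 76.2 TPM with IgG in E12.5 brain, and 51.9 and 46.8 TPM with anti-G3BP1 and 38.9 and 49.9 TPM with IgG in E16.5 brain. The sets did not overlap. A near-identical copy, Hmga1b, was listed beside it with means of 146 ± 22.0 TPM (fixed E10.5 embryo, n = 6), 56.6 ± 24.2 TPM (E12.5 brain, n = 4) and 15.5 ± 3.20 TPM (E16.5 brain, n = 4), so the authors' counting may have split reads between them and the level of Hmga1 is uncertain.

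Hmga2 had 258 and 218 TPM in anti-G3BP1, 273 and 321 TPM in IgG and 248 and 220 TPM in untreated fixed E10.5 embryo. It had 43.1 and 37.5 TPM with anti-G3BP1 and 40.7 and 33.7 TPM with IgG in E12.5 brain, and 6.16 and 4.67 TPM with anti-G3BP1 and 5.73 and 4.69 TPM with IgG in E16.5 brain. The mean in E16.5 brain was 48.2-fold below that in fixed E10.5 embryo for Hmga2 and 7.80-fold below it for Hmga1. Hmga2 made up 41.1% ± 3.58 of the summed TPM of the pair in fixed E10.5 embryo (n = 6), 34.4% ± 3.20 in E12.5 brain (n = 4) and 10.3% ± 1.90 in E16.5 brain (n = 4). Hmga1b was left out of this pair, and with any of its reads counted for Hmga1 these shares would be lower. All 8 genes together summed to 867 to 1052 TPM in fixed E10.5 embryo, 278 to 309 TPM in E12.5 brain, 117 to 127 TPM in E16.5 brain and 164 to 188 TPM in the libraries labelled fresh-frozen.

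**Figure D2:**
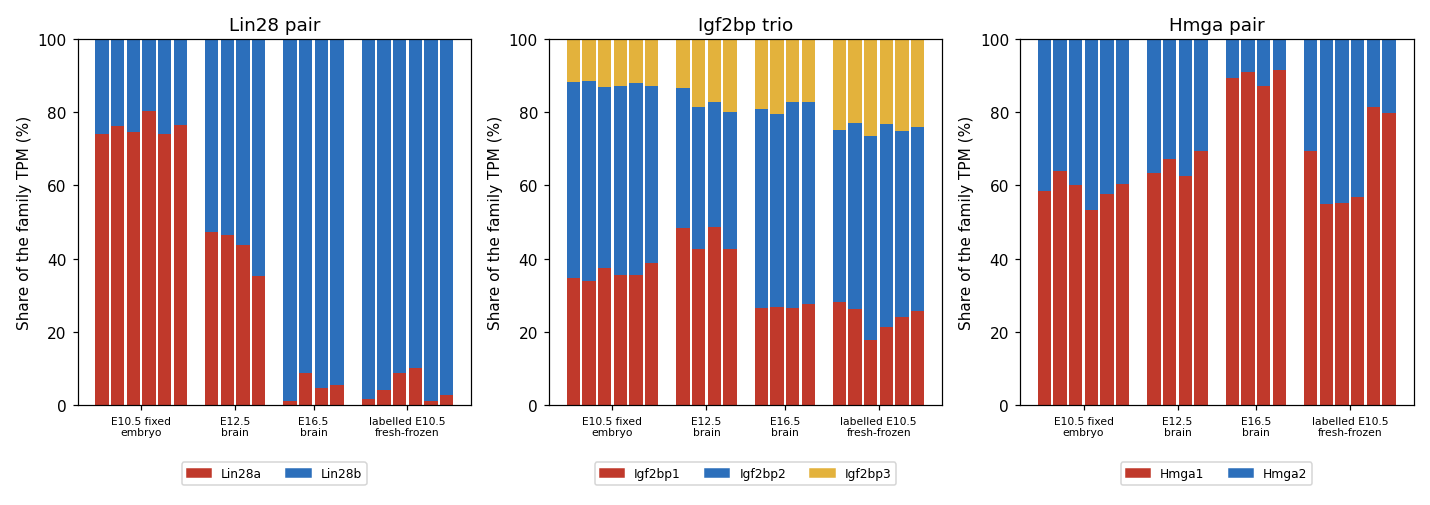
Share of the summed TPM of each family, in percent, that each paralog held in every library, for the Lin28 pair, the Igf2bp trio and the Hmga pair; each stacked bar is 1 library. Lin28a holds 5.06% of its pair on average in E16.5 brain and 75.9% in fixed E10.5 embryo, and Hmga2 holds 10.3% of its pair in E16.5 brain and 41.1% in fixed E10.5 embryo. Hmga1b is left out of the Hmga pair.

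Between the brain stages, 7 of the 8 genes were lower in E16.5 than in E12.5 brain and Lin28b did not pass the test (limma on log2(TPM + 1), all genes with at least 1 TPM in 2 libraries, the antibody as a covariate, Benjamini-Hochberg adjusted p under 0.05). Among all 20162 genes tested, 17.7% were called lower and 32.3% higher, 50% in either direction. The median log2 difference of the 8 genes was -1.42, beside 0.17 over all genes tested. Lin28a and Trim71 passed the filter on low values through the E12.5 libraries, so their part in that count and median is no support for a common direction. E12.5 and E16.5 came from separately deposited tables that list the same genes, so stage and table cannot be told apart.

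Hmga2 fell by 2.66 ± 0.15 on the log2(TPM + 1) scale (SE, 4 libraries a stage, limma adjusted p = 2.95e-06), to a mean of 5.31 ± 0.752 TPM in E16.5 brain against 38.8 ± 4.06 TPM in E12.5 brain. Lin28a fell by 2.42 ± 0.30 (adjusted p = 0.000184), and its mean of 0.666 TPM in E16.5 brain was 11.9-fold below the 7.94 TPM of E12.5 brain. Igf2bp1 fell by 2.26 ± 0.11 (adjusted p = 1.36e-06), to 14.4 ± 0.130 TPM in E16.5 brain against 73.2 ± 8.88 TPM in E12.5 brain. By the ratio of mean TPM, Hmga2 was 7.30-fold, Trim71 6.87-fold and Igf2bp1 5.07-fold lower in E16.5 than in E12.5 brain, so the order of these genes depends on the scale.

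Trim71 fell by 1.47 ± 0.30 on the same scale (limma adjusted p = 0.00319), a value that understates the change of so low a gene. In the IgG libraries alone, 2 a stage, its difference was -1.26 with an adjusted p of 0.0971. Igf2bp3 fell by 1.38 ± 0.18 (adjusted p = 0.000277), to 10.03 ± 0.901 TPM in E16.5 brain against 28.1 ± 6.45 TPM in E12.5 brain. Igf2bp2 fell by 0.99 ± 0.09, to 29.5 ± 1.18 TPM in E16.5 brain against 59.7 ± 5.09 TPM in E12.5 brain, and Hmga1 fell by 0.65 ± 0.11 (adjusted p = 0.000917). Lin28b differed by 0.28 ± 0.20 (adjusted p = 0.268), with 12.7 ± 2.28 TPM in E16.5 brain and 10.49 ± 3.24 TPM in E12.5 brain.

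Whether paralogs differed in this change was tested on the difference of their log2(TPM + 1) values within each library, for 4 pairs, with an exact two-sided permutation test of 4 against 4 libraries whose smallest possible p is 0.0286. Lin28a minus Lin28b averaged -3.06 ± 0.47 in E16.5 brain and -0.36 ± 0.29 in E12.5 brain, a gap of -2.70 (exact p = 0.0286, 0.0381 after adjustment over the 4 pairs). Hmga2 minus Hmga1 averaged -2.92 ± 0.26 in E16.5 brain and -0.92 ± 0.20 in E12.5 brain, a gap of -2.01 (exact p = 0.0286, adjusted 0.0381). Hmga1b, left out of this pair, averaged 56.6 ± 24.2 TPM in E12.5 brain and 15.5 ± 3.20 TPM in E16.5 brain. The size of the Hmga gap is therefore uncertain. Igf2bp1 minus Igf2bp2 averaged -0.98 ± 0.04 in E16.5 brain and 0.28 ± 0.17 in E12.5 brain, a gap of -1.27 (exact p = 0.0286, adjusted 0.0381). For Igf2bp3 minus Igf2bp2 the gap of -0.39 did not pass (exact p = 0.0857 before and after adjustment). In 3 of the 4 pairs, then, the first paralog was lower relative to the second in E16.5 than in E12.5 brain. The stages did not overlap there. How often other gene pairs separate in this way was not counted, and 50% of all genes were called between these stages. For the Lin28 pair the result includes Lin28a near or under 1 TPM in E16.5 brain, and Lin28b itself was not called.

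**Figure D3:**
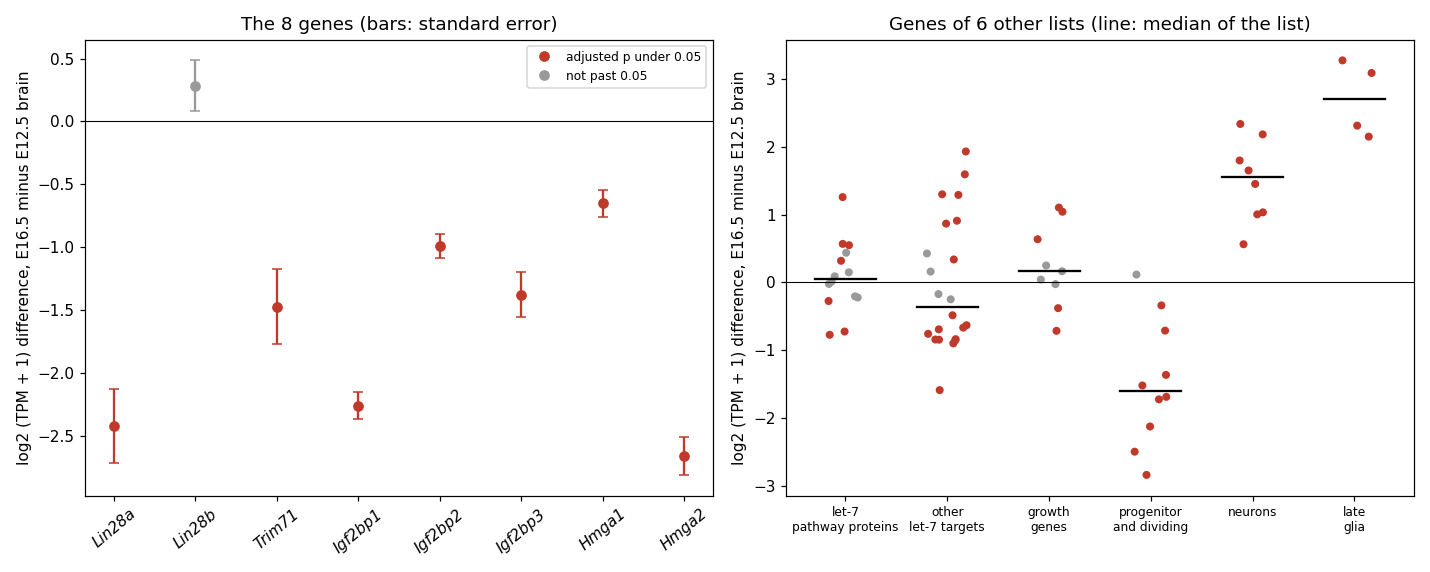
Left, the log2(TPM + 1) difference E16.5 minus E12.5 brain of the 8 genes with its SE from limma, red where the adjusted p was under 0.05; right, the same difference for each gene of 6 lists, with a line at each list's median. Hmga2 lies at -2.66 and Lin28b at 0.28; the progenitor list has a median of -1.61 and the neuron list one of 1.55.

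The genes around let-7 were called in shares near those of all genes. Of 14 proteins that make, modify or use let-7, all tested, 4 were higher in E16.5 brain and 3 lower, with a median log2 difference of 0.05, where 32.3% of all genes were higher and 17.7% lower with a median of 0.17. Tut4, the uridylyl transferase that works with Lin28a, averaged 26.5 ± 1.05 TPM in E16.5 brain and 45.1 ± 8.15 TPM in E12.5 brain and fell by 0.73 on the log2 scale (limma adjusted p = 0.00252). Ago4 averaged 28.2 ± 1.61 TPM in E16.5 brain and 11.3 ± 1.80 TPM in E12.5 brain and was higher by 1.26, whereas Ago1 averaged 77.7 ± 4.47 TPM in E16.5 brain and 136 ± 27.7 TPM in E12.5 brain and fell by 0.77; both are Argonaute proteins that hold mature microRNAs. The microprocessor partner Dgcr8, Dicer1, the exporter Xpo5, Tut7 and the exonuclease Dis3l2 did not pass the test. With all differences centred on their median, 1 of the 14 was higher and 4 were lower, so the balance of this list turned with the scaling.

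Mature microRNAs are not measured by these poly(A) libraries. Of a list of 9 let-7 hairpin genes and transcripts taken as their hosts, 4 were listed and 3 tested. Mir99ahg, which hosts a let-7c hairpin, averaged 22.0 ± 3.003 TPM in E16.5 brain and 48.0 ± 8.66 TPM in E12.5 brain and fell by 1.08 (limma adjusted p = 0.000542). Huwe1, a ubiquitin ligase whose introns host let-7f and miR-98, fell by 0.29. Mir100hg, which hosts let-7a, was higher by 0.40 (adjusted p = 0.0354), a call lost when differences were centred on the median.

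Other known let-7 targets went both ways. Of 22 tested, 7 were higher and 11 lower in E16.5 brain, with a median of -0.37, where 32.3% of all genes were higher and 17.7% lower. The G1 cyclin Ccnd1 fell by 1.59, to 40.2 ± 0.918 TPM in E16.5 brain against 124 ± 20.5 TPM in E12.5 brain (limma adjusted p = 1.55e-05). Myc and Mycn, growth transcription factors, were higher, Myc at 60.4 ± 1.38 TPM in E16.5 brain and 15.6 ± 4.98 TPM in E12.5 brain and Mycn at 91.2 ± 6.12 TPM in E16.5 brain and 48.0 ± 1.37 TPM in E12.5 brain.

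Of 9 genes of insulin and IGF signalling or known as Igf2bp-bound messages, 3 were higher and 2 lower, with a median of 0.17, close to the shares and the median over all genes. H19, a fetal non-coding RNA, averaged 245 ± 12.6 TPM in E16.5 brain and 412 ± 100 TPM in E12.5 brain and fell by 0.72 (limma adjusted p = 0.00727). The insulin receptor Insr was higher by 0.64, its adaptor Irs1 by 1.04 and Igf1 by 1.11. Igf2 itself differed by 0.04 and did not pass.

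Cell type markers moved with the same contrast. Of 10 progenitor and dividing cell markers, 9 were lower in E16.5 brain and 1, Fabp7, did not pass, and their summed level was 1846 to 2402 TPM in E16.5 brain and 4079 to 4364 TPM in E12.5 brain. Hes5, a Notch target of neural progenitors, fell by 2.84 and the intermediate filament Vim by 2.13, differences of the size of those of Igf2bp1 and Lin28a. All 8 neuron markers were higher, with summed levels of 5056 to 5158 TPM in E16.5 brain and 2831 to 3377 TPM in E12.5 brain, and all 4 late glia markers were higher with a median of 2.70. Of 5 blood markers, all globins, 4 were lower and 1, Hbb-bs, was higher. Hbb-bs averaged 725 ± 39.2 TPM in E16.5 brain and 64.2 ± 12.7 TPM in E12.5 brain. The 5 summed to 1262 to 1377 TPM in E16.5 brain and 8763 to 12282 TPM in E12.5 brain. As the globins went both ways, that sum is no measure of the amount of blood. Of 13 tested markers of early embryo tissues, 4 were higher and 5 lower, and the floor plate gene Foxa2 averaged 0.245 ± 0.295 TPM in E16.5 brain and 40.4 ± 21.7 TPM in E12.5 brain. The part of progenitor, blood and section content in the differences of the 8 genes was not tested.

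Within a tissue, the antibody used left the TPM of the 8 genes without a call. Comparing anti-G3BP1 with IgG, limma called 0 of 8 tested in fixed E10.5 embryo, 0 of 7 in the libraries labelled fresh-frozen, 0 of 8 in E12.5 brain and 0 of 6 in E16.5 brain. At an unadjusted p under 0.05 there were 2 in fixed E10.5 embryo, 3 in the libraries labelled fresh-frozen and 0 in either brain. Of those 3, Lin28a passed the filter on low values through the IgG libraries alone (2.29 and 2.39 TPM). Its part in the counts of the libraries labelled fresh-frozen is therefore no support for a difference. Among all genes, that unadjusted threshold was passed by 1153 of 19144 in fixed E10.5 embryo and 2773 of 23545 in the libraries labelled fresh-frozen. In the brains it was passed by 2452 of 18010 genes at E12.5 and 1841 of 18564 at E16.5. Over all genes, 0% were called in fixed E10.5 embryo and in E12.5 brain, 0.034% in the libraries labelled fresh-frozen and 0.0108% in E16.5 brain. Comparing IgG with untreated, 0 of 8 genes were called in fixed E10.5 embryo, beside 0% of all genes. At an unadjusted p under 0.05 there was 1, beside 2658 of all 19144 genes. In the libraries labelled fresh-frozen 1 of 7 was called, where 11.7% of all genes were called and 6.34% were called lower and 5.36% higher.

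That gene was Hmga1, at 8.75 and 8.02 TPM in IgG and 20.3 and 18.4 TPM in untreated libraries labelled fresh-frozen. It fell by 1.12 ± 0.20 on the log2(TPM + 1) scale in IgG (limma adjusted p = 0.0215). Leaving out any 1 of the 4 libraries moved the adjusted p to between 0.0564 and 0.0884, with log2 differences of -1.05 to -1.19. Each such fit leaves 1 arm with 1 library, assumed to vary like the other groups, and has fewer libraries to call with. The anti-G3BP1 libraries had 13.3 and 12.4 TPM, between the other arms.

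The editing tables list positions with their reads and edited reads, 362 positions of these genes over the 4 tables (131 in fixed E10.5 embryo, 43 in the libraries labelled fresh-frozen, 84 in E12.5 and 104 in E16.5 brain). By transcript region, 323 lay in a 3' UTR, 24 in coding sequence, 7 in a 5' UTR and 8 in a non-coding exon. Of 302 distinct 3' UTR positions on the transcripts searched for let-7 matches, 4 lay inside a match. Lin28a and Trim71 were listed only in fixed E10.5 embryo, with 8 and 2 positions. Of 340 distinct positions, 319 were listed in 1 table, 20 in 2 and 1 in 3. The counts are of reads without molecular identifiers, so intervals and floors below cover counting error only. In 18 of the 20 libraries fewer sites had 1 edited read than had 2, so part of the sites with a single edited read may be listed at 0 and a count of 0 may hide such reads.

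E16.5 brain had 6 testable genes, those with at least 50 reads in every library over sites of at least 10 reads. Igf2bp3 (chromosome 6, 49085223 to 49214957, minus strand) had 10 edited of 997 reads and 12 edited of 1501 reads with anti-G3BP1, against 0 of 1453 and 0 of 911 reads with IgG. The shares were 1.003% and 0.799% with anti-G3BP1, while the IgG counts of 0 allow up to 0.206% and 0.329%. Both anti-G3BP1 libraries thus lay above both IgG limits. Pooled, 0.881% of reads were edited with anti-G3BP1 (95% Wilson interval 0.582% to 1.33%), against 0 of 2364 reads with IgG (upper Wilson limit 0.162%). These limits leave out any single edited reads listed at 0.

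The edited reads of Igf2bp3 lay in its 3' UTR, at 9 of 17 positions, 2 of them edited in both anti-G3BP1 libraries and none with IgG. They comprised 10 A-to-G and 12 C-to-T reads, and no position had more than 3. Neighbouring positions share reads and are not independent. The positions edited in both libraries (the first 2) and the others with 3 edited reads were chosen after their values were seen and are shown on the transcript strand, 5' to 3', with the edited base in capitals (mm10 chromosome 6, minus strand):
Igf2bp3 49085410: tttcatgtctAgcctttagag
Igf2bp3 49085626: aaagtgccccCtttttacaac
Igf2bp3 49085739: ttaacttctaCatgcctttaa
Igf2bp3 49086502: ctttgttcctAtctgggaagg
At 49085410, 2 of 53 and 1 of 75 reads were edited with anti-G3BP1, against 0 of 72 and 0 of 44 with IgG.

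Whether Igf2bp3 passes depends on the test. By the quasi-binomial Wald test its log2 odds ratio was 5.43 ± 3.23 (SE), adjusted p = 0.395, with no edited read in either IgG library. By the deviance test of the same model, added after seeing the data, the adjusted p was 0.0200, and by edgeR's quasi-likelihood test it was 0.0122. With the deviance test, leaving out any 1 library gave log2 odds ratios of 5.05 to 5.72 and adjusted p-values from 0.103 to 0.288, each with 1 arm of 1 library that was assumed to vary like the other arm, and testing against the median change over all genes gave 0.373. Over every setting tried, the adjusted p ran from 0.0122 to 0.825. Among all 11741 genes 6.65% were called by the Wald test and 9.04% by the deviance test, all of them higher with anti-G3BP1.

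The other 5 genes of E16.5 brain passed none of these tests. Igf2bp1 had 0 edited of 583 and 13 of 1002 reads with anti-G3BP1, against 2 of 1045 and 1 of 829 reads with IgG. All of its anti-G3BP1 edited reads came from 1 library, and its log2 odds ratio was 2.199 ± 1.36 (Wald adjusted p = 0.421). Igf2bp2 had 11 of 1252 and 9 of 2079 reads edited with anti-G3BP1, against 10 of 2224 and 2 of 1573 with IgG, a log2 odds ratio of 0.91 ± 0.78 (adjusted p = 0.549). At its 2 coding positions 6 of 167 reads were edited with anti-G3BP1 and 0 of 110 with IgG. At its 17 positions in the 3' UTR 14 of 3164 reads were edited with anti-G3BP1 and 12 of 3687 with IgG. This split by region was not tested.

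Lin28b had 2 of 697 and 5 of 947 reads edited with anti-G3BP1, against 4 of 1302 and 0 of 752 with IgG (log2 odds ratio 1.06 ± 1.28, Wald adjusted p = 0.676). Hmga1 had 2 of 1299 and 4 of 1875 with anti-G3BP1, against 0 of 1537 and 3 of 1683 with IgG (0.92 ± 1.35, adjusted p = 0.747). Hmga2, at only 59 to 73 reads a library, had 0 of 62 and 0 of 59 with anti-G3BP1, against 0 of 61 and 1 of 73 with IgG, and a difference was not detectable at this depth. The Wald test called 0 of the 6 genes and none had an unadjusted p under 0.05. Their median log2 odds ratio was 0.99, beside 0.65 over all genes, and the overall edited share was 0.360% ± 0.020 with anti-G3BP1 and 0.222% ± 0.0076 with IgG (n = 2 each).

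**Figure D4:**
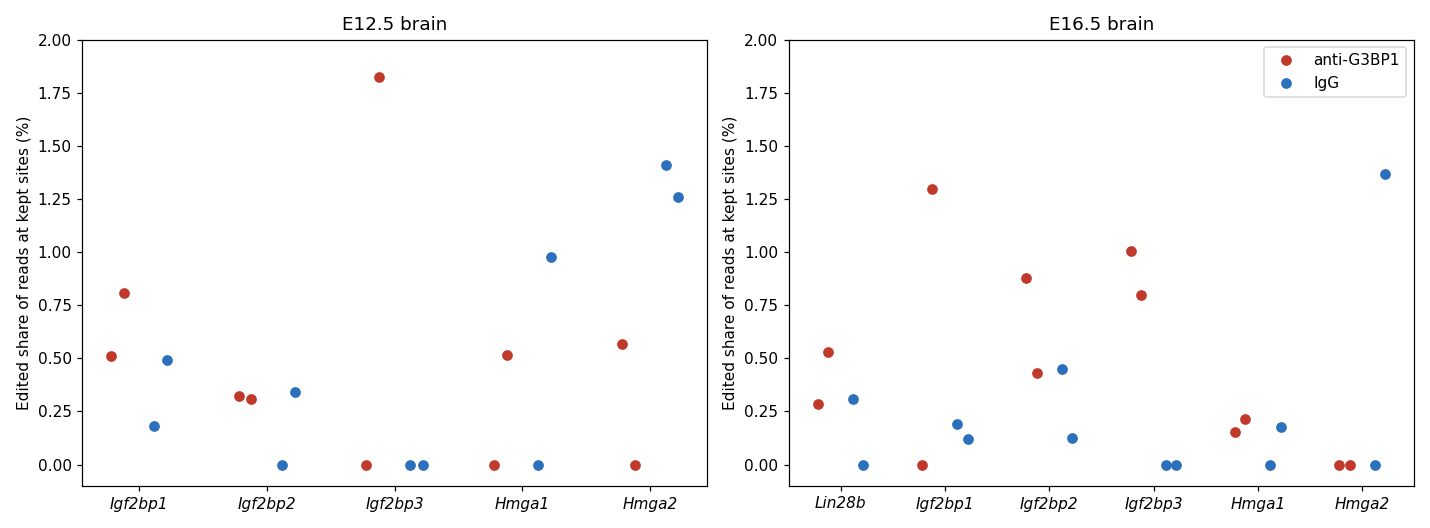
Edited share of reads, in percent, of each testable gene in every library of E12.5 brain (left, 5 genes) and E16.5 brain (right, 6 genes), with anti-G3BP1 in red and IgG in blue. In E16.5 brain the Igf2bp3 points lie at 1.003% and 0.799% with anti-G3BP1 and at 0 with IgG.

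In E12.5 brain 5 genes could be tested. Igf2bp1 had 7 of 1368 and 11 of 1363 reads edited with anti-G3BP1, against 1 of 552 and 7 of 1418 with IgG. Igf2bp2 had 4 of 1233 and 5 of 1627 with anti-G3BP1, against 0 of 435 and 5 of 1472 with IgG. Igf2bp3 had 0 of 303 and 8 of 439 with anti-G3BP1, against 0 of 158 and 0 of 485 with IgG, and 6 of those 8 reads lay at 1 position, where 6 of 36 reads were edited in 1 library:
Igf2bp3 49087258: tgacccatccAgaaccacgtg
Of the 2 positions of Igf2bp3 edited in both E16.5 anti-G3BP1 libraries, 1 was also listed in E12.5 brain: at 49085410, 0 of 26 and 0 of 34 reads with anti-G3BP1 and 0 of 17 and 0 of 58 with IgG were edited. Hmga1 and Hmga2 had at most 2 edited reads in any library. The Wald test called 0 of the 5 genes, with 0 at an unadjusted p under 0.05, beside 0% of 5568 genes called; the deviance test also called 0 of the 5, with 0.305% of all genes called. Their median log2 odds ratio was 0.20, beside 0.61 over all genes.

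A single position was listed in 3 tables, an A-to-G site in the 3' UTR of Igf2bp1 on chromosome 11 (mm10, minus strand), shown with the edited base in capitals:
Igf2bp1 95957721: tggactcgttAgggaacctca
It was edited in both arms of the brain tables. In E16.5 brain it had 0 of 46 and 3 of 73 reads edited with anti-G3BP1, against 2 of 78 and 0 of 55 with IgG. In E12.5 brain it had 2 of 75 and 1 of 94 with anti-G3BP1, against 1 of 24 and 7 of 107 with IgG. Igf2bp1 was also the sole gene of the group with enough reads at shared positions to compare the anti-G3BP1 over IgG change between the stages: over 3 positions the log2 ratio of odds ratios, E16.5 over E12.5 brain, was 1.84 ± 1.49 (Wald adjusted p = 0.996), beside 0% of 2804 genes called, 71 of them with an unadjusted p under 0.05.

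In the libraries labelled fresh-frozen 3 genes could be tested, all Igf2bp. Igf2bp1 had 4 of 229 and 4 of 451 reads edited with anti-G3BP1, 0 of 107 and 0 of 245 with IgG and 0 of 180 and 2 of 180 in untreated libraries. Igf2bp2 had 6 of 584 and 16 of 954 with anti-G3BP1, 10 of 703 and 2 of 585 with IgG and 0 of 598 and 0 of 505 in untreated libraries. Its anti-G3BP1 and IgG libraries overlapped, and the lower IgG library, at 0.342%, lay under the 0.502% and 0.594% that the untreated counts of 0 allow. Igf2bp3 had 2 of 176 and 6 of 243 with anti-G3BP1, against 4 of 129 and 0 of 142 with IgG, and no edited read in untreated libraries. The Wald test called 0 of the 3 in either contrast, with 0 at an unadjusted p under 0.05, and 1.43% of 7836 genes were called for anti-G3BP1 over IgG (5.65% by the deviance test, which also called 0 of the 3) and 0% for IgG over untreated (0.128% by the deviance test).

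Fixed E10.5 embryo gave Igf2bp1, Igf2bp2, Hmga1 and Hmga2 their most reads per arm, and no gene of the group passed a test there. Igf2bp2 had 21 of 5606 and 8 of 4786 reads edited with anti-G3BP1, 26 of 9491 and 12 of 6364 with IgG and 9 of 5518 and 5 of 1402 in untreated libraries. Igf2bp1 had 5 of 2242 and 1 of 1738 with anti-G3BP1, 10 of 3868 and 9 of 2444 with IgG and 6 of 2357 and 4 of 670 in untreated libraries, both anti-G3BP1 libraries below both IgG libraries. Hmga2 had 6 of 4459 and 6 of 3375 with anti-G3BP1, 20 of 7946 and 7 of 5766 with IgG and 8 of 4540 and 12 of 1157 in untreated libraries. Lin28a, testable only here, had 0 of 232 and 2 of 201 with anti-G3BP1, against 0 of 503 and 4 of 313 with IgG. The Wald test called 0 of 6 genes in either contrast, with 0 at an unadjusted p under 0.05, beside 0.0179% of 5594 genes called for anti-G3BP1 over IgG. Over all sites 0.485% ± 0.0091 of reads were edited with anti-G3BP1, 0.382% ± 0.028 with IgG and 0.477% ± 0.124 in untreated libraries (n = 2 each), so the untreated level was within its spread of the antibody arm.

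The genes whose TPM followed each of the 8 most closely were named by Pearson's r of log2(TPM + 1) over the 20 libraries among 13503 genes, a description that rests on the differences between 4 tissues sharing tables. For Lin28a they were Bmp4 (0.977), Car14 (0.972) and Fndc3c1 (0.970), and for Hmga2 Fndc3c1 (0.988), Itga5 (0.987) and Tcf15 (0.985). Trim71 was followed by Lsm2 (0.978), Itga5 (0.977) and Krt18 (0.976), and Hmga1 by Csrp1 (0.993), Gng5 (0.991) and Cks1b (0.990). For Igf2bp1 they were Hbb-y (0.971), Cmtm7 (0.968) and Hba-x (0.964), of which Hbb-y and Hba-x are globins of primitive red cells. For Igf2bp2 they were Copg2 (0.961), Taf1d (0.958) and Cand2 (0.952), and for Igf2bp3 Ext1 (0.939), Mest (0.934) and Arid3b (0.917). Lin28b was followed less closely, by Nkapd1 (0.900), Unc5c (0.900) and Cd2ap (0.898).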

How the data were processed

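The authors deposited, for each of the 4 tissues, a table of TPM values per gene and library and a table of editing sites with counts of reads and edited reads per library. The submitters' processing notes name HISAT2 2.2.1, BWA 0.7.17, Picard 3.1.1, GATK 4.5.0.0, Subread with featureCounts 2.0.1, and the builds mm10 and GRCm38. Their order and the filters on sites were not given in the sources used here. Listed positions differed in kind between tissues. Of the Igf2bp1 positions with at least 10 reads in every library, 15 of 16 held an edited read in fixed E10.5 embryo. In the libraries labelled fresh-frozen 5 of 5 did, against 8 of 16 in E12.5 brain and 6 of 13 in E16.5 brain. Edited shares may therefore not be comparable between tissues. The deposited TPM values sum to 1000000 per library, and the E12.5 and E16.5 tables list the same genes.

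TPM was tested as log2(TPM + 1) with limma 3.58.1 (trend, genes with at least 1 TPM in 2 libraries) in R 4.3.3. Edited reads were summed per gene over sites with at least 10 reads in every library, for genes with at least 50 reads in every library, and tested with a quasi-binomial logistic model (Wald test, 0.25 reads added, moderated dispersion). edgeR 4.0.16 on the edited counts, a deviance test and the other alternatives are in the closing section. p-values were Benjamini-Hochberg adjusted over all genes, with 0.05 as the threshold. Both models were run on simulated data. The editing changes there were placed in genes with more edited reads than Igf2bp1, Lin28b, Hmga1 and Hmga2 had in E16.5 brain. That run is therefore no measure of the power for these genes. Sequences came from RefSeq (GRCm38.p6) and GENCODE M21.

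Libraries were grouped by their labels. Equal replicate numbers paired nothing: deviations of same-numbered libraries correlated at -0.038 to 0.037. The 8 genes and the lists were chosen with earlier results of these data known. Genes named beside the 8 were those of each list with the lowest adjusted p, and the 3 with the highest r to each gene; some genes that did not pass were named after their values were seen. A gene that this rule named is not reported here. Depth behind TPM is unknown. Floors are 3 counts.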

Additional observations from a re-analysis of the deposited data

Results flagged for a closer look

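Some directions differed between tissues, with every library of a pair of arms on 1 side in 1 tissue and on the other side in another. The differences between tissues were not tested. With 2 libraries an arm, such separation often arises without a difference, and the share of all genes that meet the same rule was not counted. The directions below are therefore a description. Values are log2 ratios of mean TPM unless stated. Igf2bp1 was higher in anti-G3BP1 than in IgG libraries of the set labelled fresh-frozen (0.59, 37.7 and 25.1 TPM) and lower in fixed E10.5 embryo (-0.23, 91.1 and 107 TPM) and E12.5 brain (-0.25, 66.8 and 79.6 TPM). Igf2bp3 was higher in anti-G3BP1 than in IgG libraries of E16.5 brain (0.21, 10.8 and 9.30 TPM) and lower in fixed E10.5 embryo (-0.29, 31.4 and 38.3 TPM) and E12.5 brain (-0.47, 23.6 and 32.7 TPM). limma called none of these within a tissue. Over all genes tested, the median log2 difference between these arms was itself -0.12 in fixed E10.5 embryo and -0.15 in E12.5 brain.

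Against untreated libraries, IgG libraries had more Igf2bp1 in fixed E10.5 embryo (0.16, 107 and 95.7 TPM) and less in the libraries labelled fresh-frozen (-0.37, 25.1 and 32.5 TPM). Hmga1 likewise was higher with IgG in fixed E10.5 embryo (0.20, 386 and 336 TPM) and lower in the libraries labelled fresh-frozen (-1.21, 8.39 and 19.4 TPM). The median over all genes for IgG over untreated was 0.14 in fixed E10.5 embryo, so both positive values lie close to the shift of the whole table.

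In the libraries labelled fresh-frozen, the edited share of Igf2bp1 was 1.32 percentage points higher with anti-G3BP1 than with IgG (1.32% and 0%). The IgG counts of 0 there allow up to 2.80% and 1.22%, so a difference is not established at this depth. In E12.5 brain the share was 0.322 points higher with anti-G3BP1 (0.659% and 0.337%). The difference in fixed E10.5 embryo was -0.173 points (0.140% and 0.313%). The closest E12.5 libraries had 7 of 1368 reads edited with anti-G3BP1 and 7 of 1418 with IgG. The other E12.5 IgG library had 1 of 552, and 1 anti-G3BP1 library of fixed E10.5 embryo had 1 of 1738. Over all sites of E12.5 brain the shares were 0.401% with anti-G3BP1 and 0.206% with IgG. The Wald test called none of these differences of Igf2bp1.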

How the results depend on the processing

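Of the counts of genes called, 172 stayed within 1.5 times the value reported and 6 did not. Most of the 172 were counts of 0 that stayed 0, so they say little about stability. In E16.5 brain editing, edgeR and the deviance test each called 1 gene, Igf2bp3, against 0 by the Wald test. In the libraries labelled fresh-frozen, the IgG over untreated count of 1 (Hmga1) was 0 with any 1 library left out, lowest and highest alike. For single genes, 238 values kept direction and call, 5 lost the call (Hmga1 above and Trim71 in IgG libraries alone), 2 gained it (Igf2bp3) and 5 turned sign without a call: Hmga1 editing was -1.56 with A-to-G sites alone, Igf2bp1 -2.13 without anti-G3BP1 replicate 2 (range with 1 library left out -2.13 to 2.84) and Hmga2 0.012 without IgG replicate 2 (range -2.07 to 0.012), both also by the deviance test. The cause was not tested. The stage count stayed at 7 of 8 in every setting but the IgG libraries alone, where it was 6.

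No shared animal or batch is stated behind equal replicate numbers, and they did not pair the libraries; with the replicate block the stage count was 7 and no call changed. Over all genes, the deviance test called 443 against 112 by the Wald test in the libraries labelled fresh-frozen, 17 against 0 in E12.5 brain and 1061 against 781 in E16.5 brain, where edgeR called 681. Centred on the median, 4776 genes were higher and 5394 lower in E16.5 brain, against 6516 and 3573 as deposited.

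Depth limits the editing values: 20 of 32 combinations of gene and tissue had enough reads to test, 1 each for Lin28a and Lin28b and 0 for Trim71.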
